A study of Mus musculus with 15 samples.

Results

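Rcn1 encodes reticulocalbin 1, a calcium-binding protein of the endoplasmic reticulum lumen. All rows of the linear transcript table that carry the gene name Rcn1 were taken, whatever their class, and these were 3 of 129029 rows. Of them, 2 were sense transcripts of the gene and 1 was an assembled transcript on the opposite strand, which the assembler's class code x marks as antisense. The table of circular RNAs, in which an exon's end is joined to its own or an earlier exon's start, held 1 circle of Rcn1 among 11929. The locus was chosen by the measured FPKM of the antisense transcript, which differed between young and old kidneys, so the levels of that transcript are given as a description with no test. The same holds for all Rcn1 values in the comparison of 24 with 3 months.

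The libraries came from kidney tissue of 15 male C57BL/6 mice, 5 each at 3 months (young), 12 months and 24 months (old) of age, with no other treatment in the labels and 1 library per mouse. The study's methods name the strain C57BL/6J and describe mice of 3 and 24 months only. Mice are named by the replicate numbers of the labels, which are 5 to 9 at 3 months, 17 to 21 at 12 months and 31 to 35 at 24 months. The bases aligned to listed transcripts came to between 3.54 and 5.70 Gb per mouse. Proximal tubule markers (Lrp2, Slc34a1, Slc5a2) summed to between 973 and 1458 FPKM, and none of the 21 marker genes of 8 kidney and immune cell lists was at 0 in any mouse. Single markers were less even. Slc5a2 stood at 6.07 FPKM in replicate 18 of 12 months and at 39.4 to 83.5 FPKM in the other mice. Ptprc, a leukocyte marker, was lowest in replicate 6 of 3 months, at 0.126 FPKM.

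Reticulocalbins belong to the CREC family of proteins with several EF hands, the loops that bind calcium. The family also holds Rcn2, Rcn3, calumenin (Calu) and the calcium-binding protein Sdf4, which sits in the Golgi lumen. Most members pass through the secretory pathway, and those that end in an HDEL-type signal are returned to the endoplasmic reticulum by KDEL receptors. Antisense transcripts are read from the opposite strand of a gene. Many are noncoding, and the function of most is not known.

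All positions are in the GRCm38 build. Rcn1 lies on the minus strand of chromosome 2. Its protein-coding transcript ENSMUST00000006128 spans chr2:105386291-105399319, with 6 exons, 2720 bases and 975 coding bases. The second sense transcript, ENSMUST00000127019, spans chr2:105386929-105395348 with 5 exons and 2208 bases. It is annotated as a retained intron, a class of spliced forms in which intron sequence stays in the RNA. Its start lies inside the intron between exons 1 and 2 of the coding transcript. The antisense transcript MSTRG.20254.1 lies on the plus strand at chr2:105387879-105394824 as 1 exon of 6946 bases. It starts 40 bases downstream of the Rcn1 stop codon, in the last exon, and ends 4495 bases short of the Rcn1 start site, so that it stays inside the gene. It overlapped 5 of the 6 exons in whole or in part. Of its bases, 734 (10.6%) lay over exons and 6212 (89.4%) lay over introns of the coding transcript.

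The exons are shown here because the antisense transcript and the circle meet on them. Exon 3, at chr2:105393589-105393767, is coding throughout, is covered in full by the antisense transcript and is the whole of the circle circRNA2084. It is printed 5′ to 3′ on the minus strand, with capitals for the 10 bases at each end that the circle joins. The junction line gives the 20 bases across that join, which exist in the circle and not in the spliced linear transcript. The antisense line gives the same exon as read on the plus strand. Exon 2, at chr2:105394679-105394872, is where the antisense transcript ends, and its capitals mark the 146 bases that the antisense transcript covers, after 48 bases that it does not. The sequences come from the GENCODE M21 transcripts.
Rcn1 exon 3, sense: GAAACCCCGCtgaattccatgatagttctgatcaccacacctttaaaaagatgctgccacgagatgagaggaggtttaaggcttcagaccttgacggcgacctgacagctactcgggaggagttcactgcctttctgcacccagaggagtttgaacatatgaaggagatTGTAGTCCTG
circRNA2084 junction: TGTAGTCCTGGAAACCCCGC
Rcn1 exon 3, antisense: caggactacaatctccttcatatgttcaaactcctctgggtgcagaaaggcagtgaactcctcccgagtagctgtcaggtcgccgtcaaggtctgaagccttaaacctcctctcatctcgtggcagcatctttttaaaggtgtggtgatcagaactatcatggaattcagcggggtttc
Rcn1 exon 2, sense: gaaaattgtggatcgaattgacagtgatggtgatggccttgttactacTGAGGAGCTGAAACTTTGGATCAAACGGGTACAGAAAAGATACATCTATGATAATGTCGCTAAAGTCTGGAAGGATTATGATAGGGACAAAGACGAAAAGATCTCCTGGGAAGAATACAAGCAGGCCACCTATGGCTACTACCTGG

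The antisense transcript was low in young kidneys and had reached its old level by 12 months. FPKM, the fragments per kilobase of transcript scaled to the mapped fragments of the library, is a level per length and can be compared between transcripts. In the 3-month-old mice the antisense transcript stood at 2.10, 1.98, 2.41, 2.08 and 2.25 FPKM. In the 12-month-old mice it stood at 5.53, 5.49, 5.56, 5.46 and 5.08 FPKM, and in the 24-month-old mice at 5.13, 5.86, 5.60, 5.83 and 5.55 FPKM. Every 12- and 24-month-old mouse lay above every 3-month-old mouse, and the 12- and 24-month-old mice overlapped. The means were 2.16 ± 0.167 FPKM, 5.42 ± 0.198 FPKM and 5.59 ± 0.295 FPKM (SD, n = 5 each). The ratio of the means was 2.58 for 24 against 3 months, 2.51 for 12 against 3 months and 1.03 for 24 against 12 months. Of the difference between 3 and 24 months, 95.1% was present at 12 months. On the log2(FPKM + 1) scale, which understates changes of low values, the differences were 1.06 (SE 0.09) for 24 against 3 months, 1.02 (SE 0.09) for 12 against 3 months and 0.04 (SE 0.08) for 24 against 12 months.

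**Figure D1:**
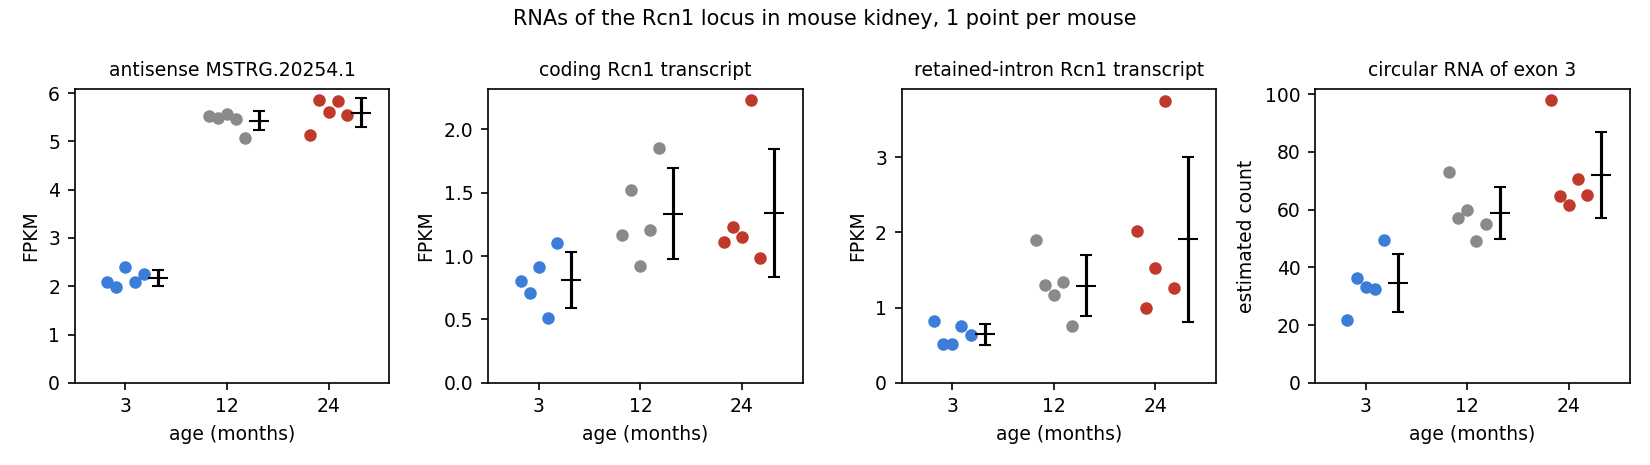
Level of each Rcn1 RNA (FPKM for the 3 linear transcripts, estimated count for the circle) against age in months, with 1 point per mouse and black bars for the mean ± SD (n = 5 per age). The antisense points form a low group at 3 months and a high group at 12 and 24 months that do not overlap, while the sense transcripts spread widely at 24 months, where replicate 34 is highest.

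Among all transcripts, 1.33% had 12-month-old mice all above the 3-month-old mice, and 1.6% had 24-month-old mice all above them. Among the antisense transcripts of the table (1372 rows of class x), these shares were 2.97% and 4.12% of the rows tested. The mean coverage per base, which is not scaled for depth, ranged over 10.48 to 14.7 at 3 months, 31.9 to 44.7 at 12 months and 35.5 to 42.1 at 24 months. Of all bases aligned to the 3 Rcn1 transcripts, the antisense transcript took 73.8% to 88.3% in each mouse, a share that its length enters. The strand setting of the authors' read counting is not given in the sources used here, although both library preparations they describe mark the strand. If the counting did not use strand, reads from the introns of unspliced Rcn1 RNA and reads from the antisense transcript cannot be told apart.

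Per length, the antisense transcript was also more abundant than the sense gene in 14 of 15 mice. The ratio of its FPKM to the summed FPKM of both sense transcripts ranged over 1.29 to 1.69 at 3 months, 1.805 to 2.65 at 12 months and 0.975 to 2.64 at 24 months, and the one value below 1 was that of replicate 34 at 24 months. Over the 15 mice the ratio of the mean levels was 1.797. Among 296 antisense transcripts with a mean of at least 1 FPKM and a named gene, the median ratio was 1.01, and 33.1% had a higher ratio than that of Rcn1. Their median length was 2968.5 bases, and 80 were longer than the Rcn1 antisense transcript. Their median log2 difference between 24 and 3 months was 0.21, with 8 of them above that of Rcn1, which is a description because this difference chose the locus.

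The sense side of the gene was low at all ages and was higher at 12 months than at 3 months, short of the threshold after adjustment. The coding transcript ENSMUST00000006128 stood at 0.80, 0.71, 0.91, 0.51 and 1.11 FPKM at 3 months. At 12 months it stood at 1.17, 1.52, 0.93, 1.203 and 1.86 FPKM, and at 24 months at 1.11, 1.23, 1.15, 2.23 and 0.98 FPKM. The ages overlapped, with replicate 34 alone above 1.86 FPKM. For 12 against 3 months its log2 difference was 0.36 (SE 0.15, unadjusted p under 0.05, Benjamini-Hochberg adjusted p = 0.641 in limma), and for 24 against 12 months it was -0.01 (adjusted p = 0.998). After adjustment 0.00481% of transcripts passed the threshold of 0.05 in the first of these comparisons and 0.00559% in the second.

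The retained-intron transcript ENSMUST00000127019 stood at 0.82, 0.52, 0.51, 0.75 and 0.63 FPKM at 3 months. It stood at 1.899, 1.304, 1.17, 1.34 and 0.76 FPKM at 12 months and at 2.02, 0.99, 1.53, 3.75 and 1.25 FPKM at 24 months. All of the old mice lay above all of the young mice, as for 1.6% of all transcripts, whereas 1 mouse of 12 months, replicate 21, fell among the young values. The log2 difference was 0.46 (SE 0.15, unadjusted p under 0.05, adjusted p = 0.548) for 12 against 3 months and 0.29 (adjusted p = 0.838) for 24 against 12 months. Without replicate 34 of 24 months the latter was 0.096, within 0.096 to 0.41 over the mice left out in turn. This transcript made up 44.9% ± 10.0, 49.1% ± 12.7 and 57.002% ± 7.796 (SD, n = 5) of the sense FPKM at 3, 12 and 24 months, with overlapping ranges. Reads that fit both sense transcripts were shared out between them by the authors' software, so the pair is not measured independently.

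Summed over both sense transcripts, Rcn1 stood at 1.62, 1.23, 1.42, 1.27 and 1.74 FPKM at 3 months. At 12 months the sums were 3.06, 2.83, 2.10, 2.54 and 2.61 FPKM, and at 24 months 3.13, 2.22, 2.68, 5.98 and 2.24 FPKM. No 12- or 24-month-old mouse fell within the young range, which held for 3.06% and 3.41% of all genes in this direction. For 12 against 3 months the log2 difference was 0.56 (SE 0.11, unadjusted p under 0.05, adjusted p = 0.0928 in limma). The adjusted p did not pass the threshold, which 0.0855% of genes passed, and 10.3% of genes had an unadjusted p under 0.05 in this direction. For 24 against 12 months the difference was 0.17 (SE 0.21, adjusted p = 0.854, with 0.0031% of genes past the threshold), and without replicate 34 of 24 months it was -0.03 (adjusted p = 0.971; 0.825 to 0.971 with each mouse left out in turn). For 24 against 3 months the difference was 0.73 (SE 0.21), and 0.54 without that mouse. The comparisons with 12-month-old mice share mice with the comparison that chose the locus and are not independent of it.

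The Rcn1 circle of exon 3 was also higher in old than in young mice. Its estimated counts were 21.7, 36.2, 33.3, 32.5 and 49.5 at 3 months, 73, 57, 60, 49 and 55 at 12 months, and 98, 64.8, 61.5, 70.8 and 65 at 24 months. The old mice lay above all young mice, as did 8.95% of all circles tested, and the 12-month-old mice overlapped the young ones only through replicate 9 of 3 months. With edgeR the log2 difference was 0.58 (SE 0.19, adjusted p = 0.0846) for 12 against 3 months, where 6.63% of circles passed the threshold, and 0.30 (SE 0.13, adjusted p = 0.243) for 24 against 12 months, where 0.738% did. Without replicate 9 of 3 months the first difference was 0.78 (adjusted p = 0.0239, within 0.0239 to 0.168 over the mice left out in turn) and passed. For 24 against 3 months it was 0.89 (SE 0.20). Scaled to each library's total of circle counts, the old mean was 1.94 times the young mean. The linear coding transcript holds the same exon, and its old mean FPKM was 1.66 times the young mean. This ratio was 2.95 for the retained-intron transcript, which also spans the exon, and 2.23 for both sense transcripts summed. The differences between these ratios were not tested. The table held 0 circles of Rcn2, Rcn3, Calu or Sdf4.

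No relation between the antisense and sense levels was detected within the ages. With each age centred on its mean and mice permuted within ages (100000 permutations, 2-sided), the antisense and sense levels of the 15 mice had a Pearson r of 0.17 (permutation p = 0.588) and a Spearman rho of -0.21 (permutation p = 0.576). Without the 2 mice farthest from the median sense level, r was -0.32 (permutation p = 0.340). Adjusted over the 4 relations computed with the antisense transcript, the p-values of r and rho were 0.855 and 0.768. Replicate 34 of 24 months had the highest sense level, 5.98 FPKM, and an antisense level of 5.83 FPKM like that of the other old mice. All 15 mice share the processing and each library's own total.

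**Figure D2:**
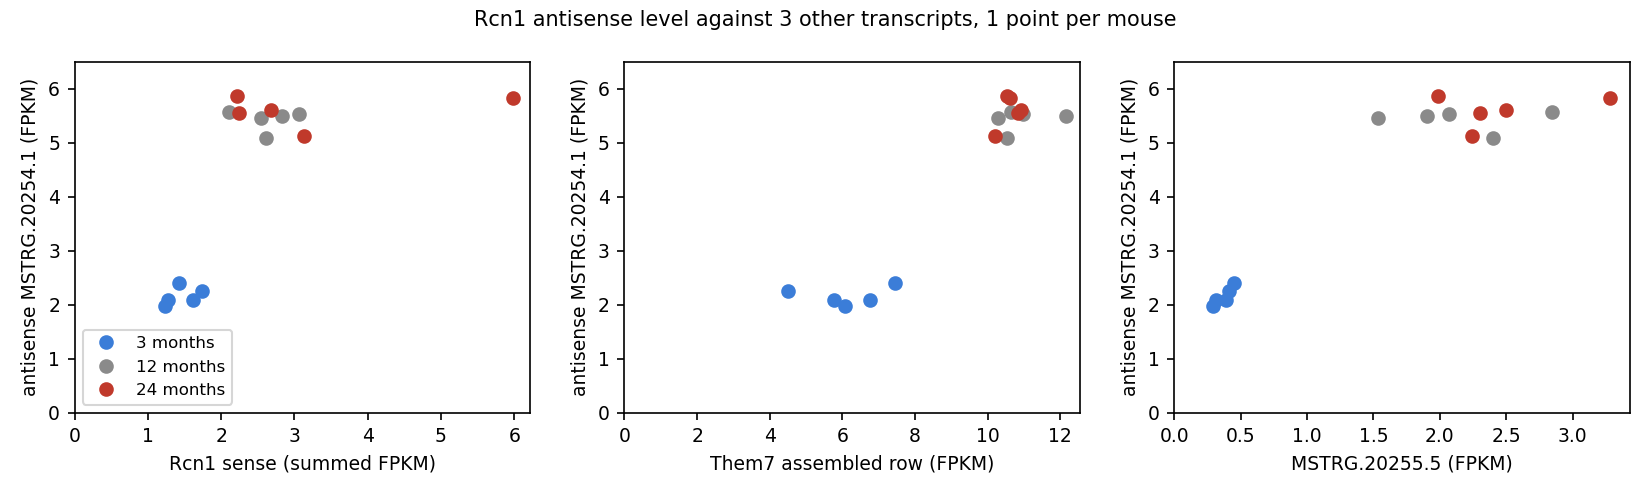
Level of the Rcn1 antisense transcript (FPKM) against the Rcn1 sense level (summed FPKM) and against 2 neighbouring plus-strand transcripts (FPKM), with 1 point per mouse coloured by age. The young mice form a separate group at the lower left of each panel, and the 24-month-old mouse at 5.98 FPKM of sense RNA sits level with the other old mice on the antisense axis.

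The other CREC genes did not pass the threshold in any comparison. Sdf4 had the highest mean over the 15 mice, 22.4 FPKM, followed by Calu with 12.4, Rcn2 with 6.12, Rcn3 with 3.32 and Rcn1 with 2.45 FPKM. Neighbours in this order overlapped in range. For 12 against 3 months the relatives' log2 differences were all above 0, with 0.38 (SE 0.22, adjusted p = 0.513) for Rcn2, 0.38 (SE 0.19, adjusted p = 0.443) for Rcn3, 0.19 (SE 0.37, adjusted p = 0.838) for Calu and 0.85 (SE 0.37, adjusted p = 0.371) for Sdf4 in limma. The Calu difference was -0.03 without replicate 6 of 3 months. Their median was 0.38 beside 0.02 over all genes. Of the 4, Sdf4 alone had an unadjusted p under 0.05 (0.0448), as 10.3% of all genes had in this direction.

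Rcn2, a reticulocalbin of the endoplasmic reticulum, stood at 3.34, 5.35, 5.81, 6.67 and 3.29 FPKM at 3 months, 8.29, 6.94, 6.19, 7.79 and 3.98 at 12 months and 6.91, 6.89, 8.29, 4.87 and 7.15 at 24 months. Rcn3, a reticulocalbin studied for its role in collagen production, had means of 2.89 ± 0.858, 4.01 ± 0.824 and 3.07 ± 0.575 FPKM (SD, n = 5). The ages overlapped for both genes, and replicate 34 was the lowest old mouse for both.

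Calu, which acts on the vitamin K-dependent carboxylation of proteins, had means of 11.8 ± 4.66, 13.7 ± 5.89 and 11.6 ± 3.999 FPKM (SD, n = 5). For 24 against 3 months the differences were 0.43 (adjusted p = 0.376) for Rcn2, 0.09 (adjusted p = 0.846) for Rcn3, 0.02 (adjusted p = 0.982) for Calu and 0.74 (adjusted p = 0.485) for Sdf4 in limma. The signs of the Rcn3 and Calu values changed when single mice were left out. None of the differences for 24 against 12 months, which ran from -0.29 to 0.05, had an unadjusted p under 0.05.

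Sdf4 stood at 7.05 to 22.1 FPKM at 3 months, 12.1 to 34.8 at 12 months and 9.83 to 35.2 at 24 months. At 3 months 4 of 5 mice had its transcript ENSMUST00000105579 listed at 0, and 1 had it at 0.61 FPKM. It was listed at 18.97, 0, 0, 6.68 and 5.92 FPKM at 12 months and at 19.60, 15.11, 0, 0 and 9.01 FPKM at 24 months. Other Sdf4 transcripts were present in the mice where it was listed at 0, and its adjusted p in limma was 0.652 for 12 against 3 months and 0.589 for 24 against 3 months. Of the 10 rows of the 4 relatives with a mean of at least 1 FPKM, this transcript alone had an unadjusted p under 0.05 for 12 against 3 months, where 4.96% of transcripts were higher and 2.5% were lower. For 24 against 3 months a second Sdf4 transcript, ENSMUST00000149971, was also higher at this threshold, with a log2 difference of 0.80, where 5.43% of transcripts were. For 24 against 12 months the assembled Sdf4 transcript MSTRG.26520.1 was higher (1.32) and the Rcn3 transcript ENSMUST00000019683 was lower (-0.49), where 2.3% and 2.17% of transcripts were, and none of these passed after adjustment in limma.

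**Figure D3:**
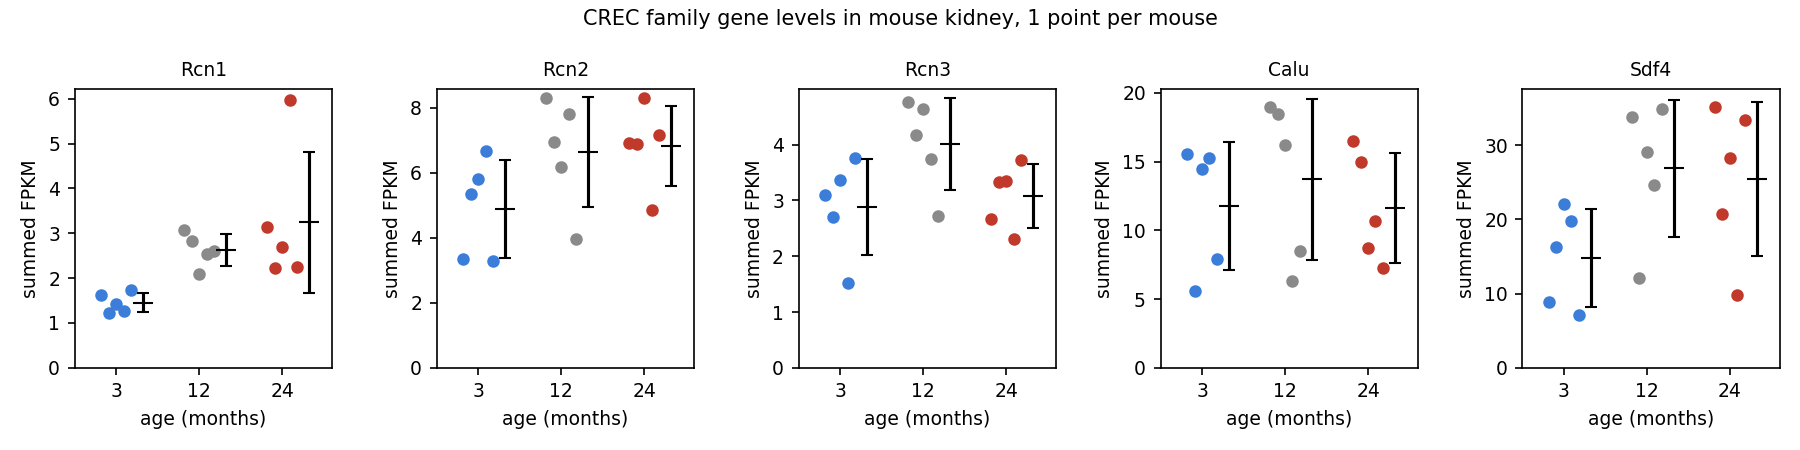
Summed FPKM of Rcn1 and 4 related genes against age in months, with 1 point per mouse and black bars for the mean ± SD (n = 5 per age). The Rcn1 points at 12 and 24 months lie above all young points, while the ages overlap for Rcn2, Rcn3, Calu and Sdf4.

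Genes of the pathway around the CREC proteins were mostly without a difference past the threshold. The list held 20 genes, namely 11 calcium-binding proteins, most of them of the endoplasmic reticulum, 3 KDEL receptors and 6 genes of vitamin K-dependent carboxylation. For 12 against 3 months, 3 genes were higher and 1 was lower at an unadjusted p under 0.05, where 10.3% and 2.64% of all genes were, and no gene passed after adjustment in limma. Those higher were Calr (calreticulin, a lectin chaperone that binds calcium), with 122 ± 27.8 and 165 ± 28.5 FPKM (SD, n = 5), Kdelr3 (a retrieval receptor), with 0.767 ± 0.180 and 1.22 ± 0.183 FPKM, and Mgp (matrix Gla protein, an inhibitor of calcification), with 19.8 ± 6.65 and 39.1 ± 10.4 FPKM. The list's median difference was 0.07, beside 0.02 over all genes.

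Hspa5, the chaperone BiP of the endoplasmic reticulum, ran the other way. It fell from 59.9 ± 8.46 FPKM at 3 months to 28.6 ± 5.87 at 24 months (SD, n = 5), a log2 difference of -1.05 (SE 0.15, limma adjusted p = 0.0244), with 39.4 ± 7.60 FPKM at 12 months. All old mice lay below all young mice, as for 0.713% of genes. Hspa5 was the only one of the 20 genes to pass for 24 against 3 months, where 0.599% of all genes did. The call was lost without any 1 of 7 mice (each of the 5 young mice and replicates 33 and 34 of 24 months), with adjusted p between 0.0214 and 0.0624 over the 10 mice left out in turn. Kdelr3 was also higher for 24 against 3 months at an unadjusted p under 0.05, with a difference of 0.33 (limma adjusted p = 0.321), where 10.4% of genes were higher and 3.08% were lower.

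For 24 against 12 months, Pros1 (protein S, a cofactor in anticoagulation) was higher and Hspa5 and Ggcx (the vitamin K-dependent carboxylase) were lower at an unadjusted p under 0.05. Their differences were 0.39, -0.45 and -0.30, each with an adjusted p of 0.835 in limma, and the list's median was -0.22 beside 0.00 over all genes. At this threshold 2.67% of genes were higher and 3.05% were lower. Of the most abundant genes of the list, P4hb, Hsp90b1 and Pdia3, which fold proteins in the endoplasmic reticulum, had no unadjusted p under 0.05 in any comparison, nor did Gas6 (a vitamin K-dependent receptor ligand), with 74.001, 74.5 and 64.3 FPKM, Vkorc1 (vitamin K epoxide reductase), with 17.4, 18.6 and 14.5 FPKM, or the retrieval receptors Kdelr1, with 16.1, 12.9 and 13.3 FPKM, and Kdelr2, with 21.96, 19.5 and 17.2 FPKM, on average at 3, 12 and 24 months.

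Around the gene, a plus-strand transcript on either side was above its young range in every 12- and 24-month-old mouse. The table listed 61 other rows within 500 kb of Rcn1. A plus-strand row farther off, MSTRG.20249.1 in an intron of Wt1 and 224 kb from Rcn1, ran the other way. It was below its young range in every 12- and 24-month-old mouse, and 2 mice of 12 months had it at 0. Its log2 differences were -0.77 (limma adjusted p = 0.549) for 12 against 3 months and -0.35 (limma adjusted p = 0.447) for 24 against 3 months. On the side of the Rcn1 gene end, an assembled transcript of Them7 (MSTRG.20252.1, a splice form that adds to the annotated gene) spans chr2:105223626-105380547 on the plus strand and ends 5.74 kb from Rcn1. It stood at 6.77, 6.06, 7.45, 5.77 and 4.505 FPKM at 3 months, 10.99, 12.16, 10.66, 10.28 and 10.55 at 12 months and 10.21, 10.54, 10.93, 10.62 and 10.84 at 24 months. No later mouse fell within the young range, as for 1.33% of all transcripts at 12 months and 1.6% at 24 months in this direction. Its log2 difference was 0.76 (SE 0.13, limma adjusted p = 0.211) for 12 against 3 months, -0.03 (adjusted p = 0.937) for 24 against 12 months and 0.72 (SE 0.12, adjusted p = 0.157) for 24 against 3 months. With all 15 mice in 1 fit the adjusted p of the last was 0.0326, the lowest of its alternatives, of which the others stayed above 0.05. This transcript was singled out from its neighbours after its values had been seen, so these tests are not independent of that choice. The annotated Them7 transcript ENSMUST00000131060 was at 0 in all 3- and 12-month-old mice and in 4 of 5 old mice. Its mean was 0.001 FPKM, so these values are of the assembled transcript and not of the annotated one.

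On the side of the Rcn1 start site lies an unnamed intergenic transcript, MSTRG.20255.5, at chr2:105435467-105441746 on the plus strand. It was the transcript most like the antisense transcript over the 15 mice among 30189 with a mean of at least 1 FPKM, with a Pearson r of 0.964. It stood at 0.39, 0.29, 0.45, 0.31 and 0.41 FPKM at 3 months, 2.07, 1.902, 2.85, 1.53 and 2.401 at 12 months and 2.24, 1.99, 2.50, 3.28 and 2.30 at 24 months. Every mouse of 12 and 24 months lay above every young mouse, as for 1.33% of all transcripts at 12 months and 1.6% at 24 months. The log2 difference was 1.19 (SE 0.13, limma adjusted p = 0.0667) for 12 against 3 months, 0.14 (adjusted p = 0.840) for 24 against 12 months and 1.33 (SE 0.12, adjusted p = 0.0173) for 24 against 3 months, where 0.0192% of transcripts passed. These sizes are reduced by the pseudocount, since the young level was low. With a pseudocount of 0.1 the differences were 2.24 for 12 against 3 months and 2.43 for 24 against 3 months, with values rescaled to 1 fixed total per mouse (TPM) they were 1.93 and 2.17, and the ratios of the mean FPKM were 5.78 and 6.62. The call for 24 against 3 months was lost without replicate 6 (adjusted p = 0.0517) or replicate 9 (adjusted p = 0.0677) of 3 months. Because likeness to the antisense transcript singled it out, these tests are not independent of the choice of the locus.

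All 8 tested rows of Them7 and of unnamed plus-strand transcripts were higher at 12 than at 3 months, with a median log2 difference of 0.36, and 4 of them had an unadjusted p under 0.05, where 4.96% of all transcripts did in this direction. The rows overlap and share reads. They include MSTRG.20252.1 and MSTRG.20255.5, so this count is a description and not independent of the choice of those rows. In every other tested row of this set, the values of the 12- and 3-month-old mice overlapped. Of all 35 plus-strand rows tested, 21 were higher at 12 than at 3 months, and their median was 0.007. Over all 54 rows tested within 500 kb, 5 were higher and 3 were lower at this threshold, where 2.5% of all transcripts were lower, and the median was 0.01. Summed per gene, none of the named genes nearby passed after adjustment in limma. With an unadjusted p under 0.05 there was only Rpl10-ps1 for 24 against 12 months, a ribosomal protein pseudogene whose reads are uncertain, with a log2 difference of -0.74. Wt1, the podocyte transcription factor, had means of 2.41, 2.73 and 2.67 FPKM, and Eif3m, a subunit of a translation initiation factor, had 33.98, 31.5 and 32.4 FPKM. Elp4, a subunit of the Elongator complex, had 0.482, 0.140 and 1.61 FPKM on average. Its single values at 24 months were 0.168, 3.03, 0.116, 0.795 and 3.95 FPKM. This Elp4 sum leaves out the assembled transcripts MSTRG.20264.1, MSTRG.20264.3 and MSTRG.20264.5, whose means over all mice were 1.03, 1.31 and 2.19 FPKM. Their log2 differences for 24 against 12 months were 0.01, -0.31 and -0.20, and none passed after adjustment in limma. Pax6, an eye transcription factor, was at most 0.111 FPKM on average.

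**Figure D4:**
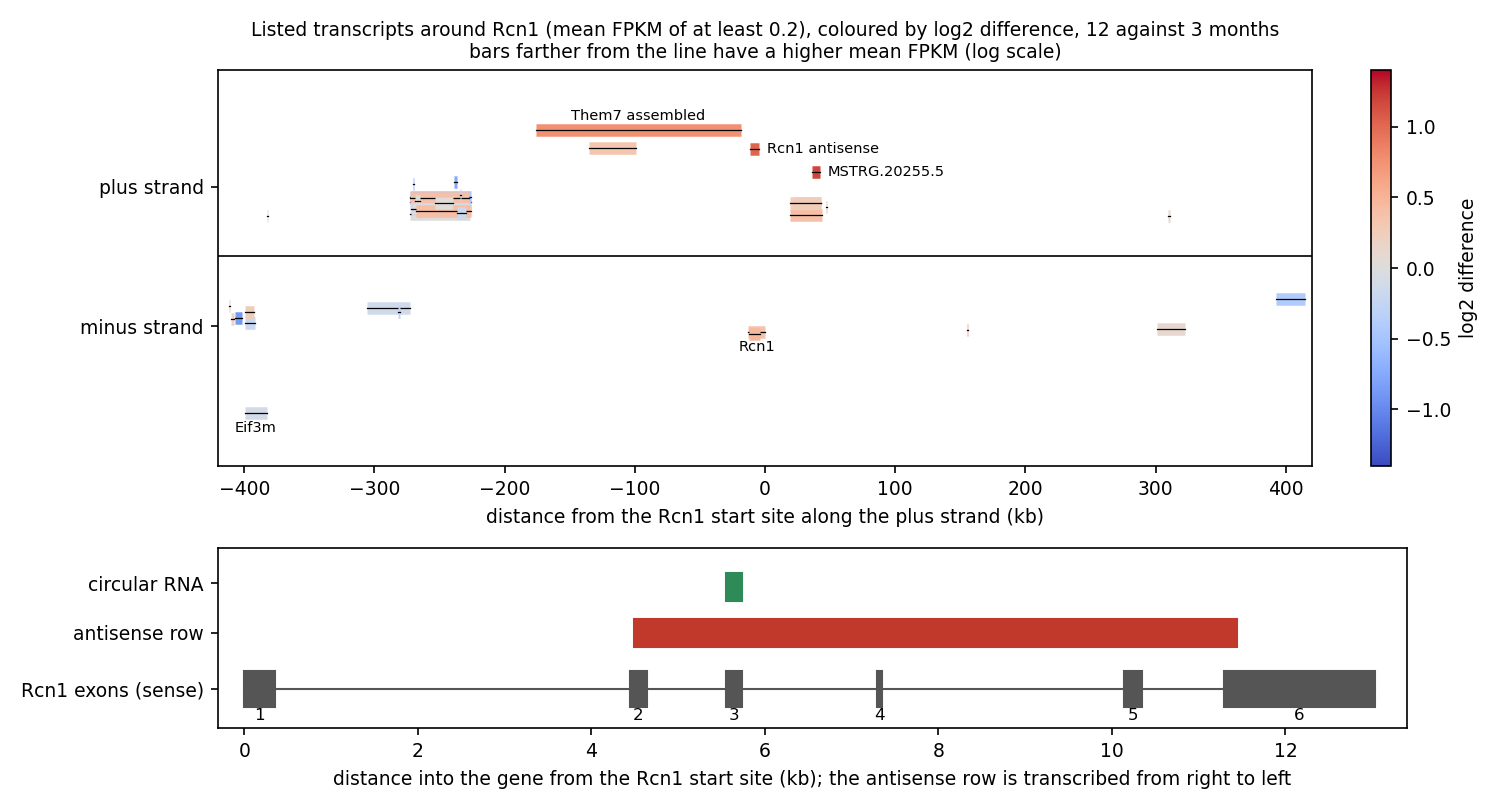
Upper panel, listed transcripts with a mean of at least 0.2 FPKM by strand and distance from the Rcn1 start site in kb, coloured by the log2 difference of 12 against 3 months (limma, log2(FPKM + 1)). Lower panel, the 6 Rcn1 exons, the antisense transcript and the circle by distance into the gene in kb. The reddest bars are the plus-strand assembled Them7, Rcn1 antisense and MSTRG.20255.5 transcripts, with differences of 0.76, 1.02 and 1.19. The antisense bar covers exons 2 to 6 in whole or in part.

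Other transcripts resembled the locus over the 15 mice as well. After MSTRG.20255.5, those most like the antisense transcript were the unnamed MSTRG.33245.38 on chromosome 7 (Pearson r 0.963) and an assembled form of Gm6309 on chromosome 5 (r 0.962). The Rcn1 sense level was most like transcripts of Zmynd12 on chromosome 4 (r 0.908) and of Entpd4 and Gm21685 on chromosome 14 (both r 0.890). These values come from the same libraries and include the difference between ages.

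Several markers of other cells also had an unadjusted p under 0.05 between the ages. In bulk kidney RNA, fewer cells of a type and less RNA per cell cannot be told apart. The summed leukocyte and plasma cell markers (Ptprc, Cd3e, Cd79a, Jchain) ranged over 2.58 to 6.74 FPKM at 3 months, 5.52 to 24.5 at 12 months and 8.33 to 16.97 at 24 months. At an unadjusted p under 0.05, 3 of 4 were higher for 12 against 3 months and 4 of 4 for 24 against 3 months, where 10.3% and 10.4% of all genes were. The summed fibroblast markers (Col1a1, Col1a2, Col3a1, Pdgfra, Dcn) ranged over 14.5 to 47.9, 44.7 to 75.1 and 32.5 to 50.6 FPKM, with 3 of 5 higher for 12 against 3 months and 2 of 5 for 24 against 3 months at the same threshold, beside the same shares of all genes. Of the 2 tubular injury markers, Havcr1 was higher at 12 months, with 0.405 ± 0.398 FPKM at 3 months and 3.01 ± 2.04 at 12 months (SD, n = 5). The collecting duct marker Aqp2 was lower at 12 months, with 66.2 ± 36.2 and 26.0 ± 6.07 FPKM. At this threshold 10.3% of all genes were higher and 2.64% were lower for 12 against 3 months. For 24 against 3 months Aqp2 and the proximal tubule marker Slc5a2 were lower, where 3.08% of genes were. For 24 against 12 months Havcr1, Col1a1 and Col3a1 were lower, where 3.05% of genes were. None of these markers passed after adjustment in limma, and their part in the Rcn1 results was not tested.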

How the data were processed

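Kidney RNA-seq libraries of 15 mice were assigned to ages by the age label. The titles begin with 3M at all ages. The labels describe rRNA depletion and a stranded total RNA kit, whereas the study's methods describe oligo(dT) purification, and which was used could not be settled. After trimming (Cutadapt) and mapping to GRCm38 (HISAT2 and Bowtie2), the authors assembled and merged transcripts with StringTie and deposited FPKM per transcript and mouse. The submitters' processing notes also name TopHat2. The deposited coverage is the mean per-base signal of each transcript. The deposited estimated counts of circular RNAs were rounded before testing, and how the circles were called is not given in the sources used here. FPKM is scaled to each library's own total. No read counts per linear transcript were used, so precision is given by the spread between mice. The mean coverage per base ranged over 2.59 to 16.1 for ENSMUST00000006128 and 2.91 to 27.1 for ENSMUST00000127019 across the mice. Nothing states more than 1 library per mouse.

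Transcripts, and genes as the sum of their Ensembl transcripts, were compared with limma 3.58.1 (trend) in R 4.3.3 on log2(FPKM + 1), using the 10 mice of the 2 ages compared and all rows above 0 in at least 1 of them. Benjamini-Hochberg adjustment covered all rows, and a call was an adjusted p under 0.05. Circles above 0 in at least 5 mice were tested with edgeR 4.0.16 (quasi-likelihood, TMM), with DESeq2 1.42.0 as an alternative. The SE of a circle's log2 difference is its size over the square root of F. In simulations of 12 against 3 months with 200 features changed by a log2 difference of 1.5, 87 of 200 were recovered among 124761 transcripts, 153 among 31582 genes and 200 among 11924 circles. False calls numbered 9, 6 and 14. The changed features were drawn from the better expressed rows, and 1.5 is larger than any Rcn1 difference given here. These shares therefore do not give the recovery of differences as small as those of Rcn1. Correlations used scipy 1.17.1.

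Named were all Rcn1 rows, rows of the 4 relatives with a mean of at least 1 FPKM, genes within 500 kb, the 3 transcripts most like the antisense transcript and the Rcn1 level, and list genes with an unadjusted p under 0.05 or among the 4 most abundant. The members and lists were chosen with earlier results of these data known.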

Additional observations from a re-analysis of the deposited data

Results flagged for a closer look

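Of 42 groups of 5 mice (14 items at 3 ages), 5 held a mouse whose gap to the nearest other mouse was above 0.71 of the group's range, Dixon's critical value, and chance alone flags about 1 in 20 groups. The antisense transcript MSTRG.20254.1 was lowest in replicate 21 of 12 months, at 5.08 FPKM, which is still above every young mouse. The coding transcript ENSMUST00000006128 was highest in replicate 34 of 24 months, at 2.23 FPKM. The summed Rcn1 sense level was highest in the same mouse, at 5.98 FPKM. The circle circRNA2084 was highest in replicate 31 of 24 months, at an estimated count of 98. Hspa5 was highest in replicate 5 of 3 months, at 74.5 FPKM. The causes were not tested.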

How the results depend on the processing

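No paired analysis was possible because the ages share no replicate numbers. The antisense difference moved with the scale: for 24 against 3 months it was 1.33 with a pseudocount of 0.1 and 1.303 after rescaling to TPM, and for 12 against 3 months 1.29 and 1.197. Both lower the weight of the pseudocount against the level. With each mouse left out in turn it ran from 1.04 to 1.09, from 1.002 to 1.05 for 12 against 3 months and from 0.02 to 0.06 for 24 against 12 months. The Rcn1 sense difference ran from 0.54 to 0.81, from 0.52 to 0.62 and from -0.027 to 0.25 in these comparisons, and the circle from 0.77 to 1.09, from 0.46 to 0.78 and from 0.20 to 0.36. The circle passed the threshold for 12 against 3 months without replicate 9 of 3 months.

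Of the CREC relatives, the number with an unadjusted p under 0.05 was 0 for 24 against 3 months, 1 with TPM and 2 with assembled isoforms added, and 0 to 2 with mice left out. It was 1 for 12 against 3 months, 0 with TPM, 2 with all 15 mice in 1 fit, 2 with assembled isoforms added and 0 to 2 with mice left out. For 24 against 12 months it was 0, 1 with assembled isoforms added and 0 to 1 with mice left out. The 20 pathway genes gave 1 to 3, 3 to 5 and 1 to 4 for 24 against 3, 12 against 3 and 24 against 12 months with mice left out.

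The age-centred correlation of antisense with sense was 0.17, but -0.21 as Spearman's rho, -0.32 without 2 mice and -0.14 to 0.32 with each mouse left out. With mice left out, Rcn3 ran from -0.061 to 0.17 and Calu from -0.19 to 0.16 for 24 against 3 months, and Calu from -0.028 to 0.41 for 12 against 3 months. For 24 against 12 months, Rcn2 ran from -0.094 to 0.15, Sdf4 from -0.36 to 0.18 (0.020 with assembled isoforms added), ENSMUST00000006128 from -0.13 to 0.070 (0.043 with TPM) and MSTRG.20252.1 from -0.054 to 0.0011 (0.028 with TPM). The causes were not tested. MSTRG.20255.5 passed for 12 against 3 months with a pseudocount of 0.1 (adjusted p = 0.0161), with TPM (0.0338), with all 15 mice in 1 fit (0.00883) and without replicate 20 of 12 months (0.0384), and reached up to 0.166 without other mice.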

Other observations

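Age-centred correlations of the antisense transcript with 3 other RNAs were computed after their values had been seen. Pearson's r over the 15 mice was 0.18 with the assembled Them7 transcript MSTRG.20252.1 (permutation p = 0.641), 0.21 with MSTRG.20255.5 (permutation p = 0.420) and -0.04 with the circle circRNA2084 (permutation p = 0.928). Spearman's rho was 0.40 (permutation p = 0.226), 0.33 (permutation p = 0.313) and -0.06 (permutation p = 0.849). Without the 2 mice farthest from the median of the other RNA, r was 0.61 (permutation p = 0.0724), 0.12 (permutation p = 0.699) and -0.31 (permutation p = 0.499). Adjusted over the 4 relations, every p of r was at least 0.855 and every p of rho was at least 0.627.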
